A study of Mus musculus with 6 samples.

Results

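Genes of acetylcholine signalling, 10 in all, were followed in N2A mouse neuroblastoma cells: the cholinesterases Ache and Bche, the synthesis and transport genes Chat, Slc18a3 and Slc5a7, and the nicotinic receptor subunit genes Chrna3, Chrna5, Chrnb4, Chrna7 and Chrnb2. Each of the 10 genes was read by 1 row of the array, the row whose only platform gene symbol is that gene, among 21789 rows with 1 gene symbol and 35556 rows in all. RNA was taken 2.5 days after the cells were transfected with 1.5 µg of a Pou3f3-targeting short hairpin RNA (shRNA) construct, in 3 knockdown arrays, or of a non-targeting vector, in 3 control arrays. Both groups were the same parental line, received FuGENE 6 and had no other treatment, and the arrays were GeneChip Mouse Gene 1.0 ST. Transfection was transient in a single line. The study's methods call the 3 samples of each group biological replicates, and the share of cells that took up the vector is not given in these sources. All values are log2 array values, and all differences are knockdown minus control. Array values of different genes depend on their probes and do not rank the genes by abundance.

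Acetylcholine is made from choline and acetyl coenzyme A in the cytoplasm, loaded into synaptic vesicles, released, and cleaved outside the cell to choline, which the terminal takes up again. Nicotinic receptors are cation channels of several subunits that acetylcholine opens. In sympathetic ganglia, the lineage from which neuroblastoma arises, the fast synaptic response is carried mainly by receptors that contain the alpha3 and beta4 subunits, and the genes of alpha5, alpha3 and beta4 lie side by side in the genome.

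The target of the shRNA, Pou3f3, had values of 8.20, 8.09 and 8.35 in knockdown replicates 1 to 3, against 8.37, 8.30 and 8.47 in the controls. The test was limma, and a row was called where its Benjamini-Hochberg adjusted p was under 0.1 and its groups differed by 1.3-fold or more. The Pou3f3 groups overlapped, and the difference of -0.16 (95% confidence interval -0.35 to 0.02) did not pass (limma adjusted p = 0.303; exact two-sided permutation p = 0.2, the lowest possible with 3 arrays a group being 0.1). Pou3f3 was lower in all 3 pairs of the same replicate number, by differences of -0.17, -0.21 and -0.12, and a replicate block gave an interval of -0.29 to -0.03 (limma adjusted p = 0.0880), with the difference under the fold cut-off. The lower end of the first interval corresponds to a level 1.28-fold lower. By quantitative reverse transcription PCR the study reported a larger reduction of the Pou3f3 transcript than this in its knockdown. That assay is not among the values read here.

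In knockdown cells 2 of the 10 genes were lower by the test used here, Ache and Chrna3, and none was higher. The test called 0.684% of all named rows lower. The other 8 genes also had differences below 0, from -0.01 for Chrnb2 to -0.35 for Chrnb4, although the sign of Chat turned after cyclic loess normalisation (0.06). Among all named rows 57.5% had a difference below 0, a share that changed with the array value and is given by level class below. The median of the 10 differences was -0.19, against -0.03 over all named rows.

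The promoters of the 4 genes with a limma adjusted p under 0.1, called or not, are shown because 3 of these genes are neighbours, so that the letters around their start sites can be set side by side. The sequences are those of RefSeq on GRCm38.p6 and run from 250 bases before to 50 bases after an annotated start. Ache lies at chr5:137288004-137288303 on the plus strand, Chrna3 at chr9:55026513-55026812 on the minus strand, Chrnb4 at chr9:55048495-55048794 on the minus strand and the second of the 2 annotated starts of Chrna5 at chr9:54981238-54981537 on the plus strand. Capitals mark GGGCGG, the core of the GC box that Sp1 family proteins bind, and CACGTG, an E-box, each read on both strands.
Ache promoter: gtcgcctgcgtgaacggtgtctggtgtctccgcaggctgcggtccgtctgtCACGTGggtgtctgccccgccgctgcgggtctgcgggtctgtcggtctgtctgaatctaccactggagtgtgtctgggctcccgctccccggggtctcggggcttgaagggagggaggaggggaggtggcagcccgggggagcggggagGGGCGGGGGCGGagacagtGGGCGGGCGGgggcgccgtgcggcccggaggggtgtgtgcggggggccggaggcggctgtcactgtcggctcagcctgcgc
Chrna3 promoter: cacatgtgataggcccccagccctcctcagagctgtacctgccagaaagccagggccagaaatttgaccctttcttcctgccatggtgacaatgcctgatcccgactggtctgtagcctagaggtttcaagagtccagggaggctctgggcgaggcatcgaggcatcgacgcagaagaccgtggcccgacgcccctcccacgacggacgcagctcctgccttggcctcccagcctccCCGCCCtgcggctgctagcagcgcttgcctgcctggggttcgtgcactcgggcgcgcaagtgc
Chrnb4 promoter: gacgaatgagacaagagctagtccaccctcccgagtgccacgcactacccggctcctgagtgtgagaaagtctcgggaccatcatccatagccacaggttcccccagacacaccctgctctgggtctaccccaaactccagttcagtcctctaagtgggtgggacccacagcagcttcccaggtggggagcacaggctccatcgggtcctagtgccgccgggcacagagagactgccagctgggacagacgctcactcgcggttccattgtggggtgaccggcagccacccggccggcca
Chrna5 promoter: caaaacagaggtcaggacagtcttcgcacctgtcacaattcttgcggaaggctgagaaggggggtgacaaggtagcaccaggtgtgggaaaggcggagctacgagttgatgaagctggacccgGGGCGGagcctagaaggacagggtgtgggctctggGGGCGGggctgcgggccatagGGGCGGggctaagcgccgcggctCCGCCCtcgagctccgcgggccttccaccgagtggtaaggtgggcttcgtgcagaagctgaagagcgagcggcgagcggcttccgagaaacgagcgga

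The Ache window held 4 matches to GGGCGG, 2 of which overlap, and 1 to CACGTG. Chrna3 had 1 match to GGGCGG, this Chrna5 start had 4, and Chrnb4 had none. Of the 11 windows of the 10 genes, 7 had a match to GGGCGG and 3 (of Ache, Chat and Chrna7) had a match to CACGTG. Among 32851 annotated promoters of the same length, 35.7% and 7.15% had a match, and these shares were not matched for GC content. The octamer ATGCAAAT, a sequence that POU proteins bind, was in none of the 11 windows of the 10 genes and in 1.74% of all promoters. The Ache window contained 30 CpG dinucleotides, the Chrna5 start shown 25, Chrna3 18 and Chrnb4 14, where the median over all promoters was 7 and the upper quartile 20. The first annotated start of Chrna5, at chr9:54980630-54980929 and not shown, had 5 CpG dinucleotides and no match to GGGCGG. These motifs were chosen after the sequences had been read, and a match is a description of letters only.

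Ache encodes acetylcholinesterase, the enzyme that ends transmission by cleaving acetylcholine. It had values of 11.13, 11.05 and 11.24 in knockdown arrays, against 11.67, 11.54 and 11.70 in control arrays. The 3 knockdown arrays lay together below all 3 control arrays, with a gap wider than the range within either group. Ache fell by 0.49 ± 0.08 (SE, 95% confidence interval -0.66 to -0.32), which is a level 1.41-fold lower (limma adjusted p = 0.0196). In bulk RNA, fewer cells that express a gene and less of its RNA per cell cannot be told apart. Between arrays of the same number the Ache differences were -0.53, -0.48 and -0.45.

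Chrna3, the ligand-binding alpha3 subunit of ganglionic receptors, had values of 12.90, 12.98 and 12.92 in knockdown arrays and 13.32, 13.45 and 13.34 in control arrays. The knockdown arrays were again all below the controls and lay close to one another. Chrna3 fell by 0.44 ± 0.07 (SE, 95% confidence interval -0.59 to -0.28), a level 1.35-fold lower (limma adjusted p = 0.0192). The pairs of the same number differed by -0.42, -0.48 and -0.41. Ache and Chrna3 were the called genes on leaving out any single array, with Chrnb4 beside them once. Their adjusted p by limma then ran from 0.0343 to 0.0978 for Ache and from 0.0271 to 0.0992 for Chrna3. The upper ends lie close to the cut-off of 0.1. The study's variance filter, as read here, left 17778 rows, listed or not, with a variance above the median. In a test on these rows neither gene was called (limma adjusted p = 0.264 and 0.278).

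**Figure D1:**
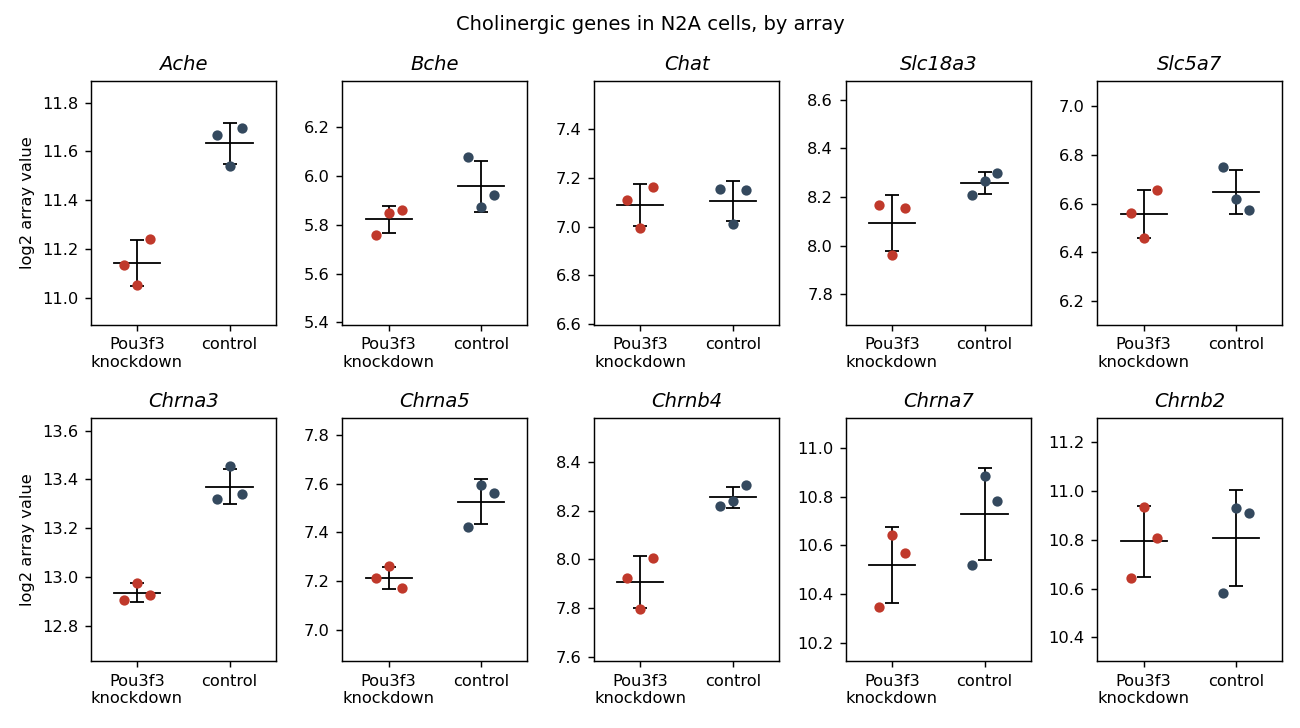
Array values on the log2 scale (vertical axes of 1 log2 unit) for the 10 cholinergic genes in Pou3f3 knockdown (left, red) and control (right, dark) cells. Points are single arrays, replicates 1 to 3 from left to right, and lines with whiskers give the mean ± SD of 3 arrays. The groups are wide apart for Ache, Chrna3, Chrna5 and Chrnb4, close for Bche and Slc18a3, and overlap for Chat, Slc5a7, Chrna7 and Chrnb2.

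Chrnb4 and Chrna5 came closest to the called genes. Chrnb4 encodes the beta4 subunit, which assembles with alpha3. Its values were 7.92, 7.80 and 8.00 in knockdown arrays and 8.22, 8.24 and 8.30 in control arrays, so that the groups did not overlap. The difference was -0.35 ± 0.07 (SE, limma adjusted p = 0.0541), a 1.27-fold lower level that stayed under the fold cut-off. Chrna5 encodes alpha5, an accessory subunit that joins receptors formed by other subunits. It had values of 7.21, 7.26 and 7.17 in knockdown arrays, against 7.42, 7.60 and 7.56 in control arrays. These groups did not overlap either, and the difference of -0.31 ± 0.07 (SE, limma adjusted p = 0.0657) corresponded to a 1.24-fold lower level. Without the fold cut-off both would be called in the main fit, together with Ache and Chrna3, against 1.79% of named rows called lower in that way. After cyclic loess Chrnb4 differed by -0.293 (limma adjusted p = 0.0625) and Chrna5 by -0.234 (limma adjusted p = 0.159). Without knockdown replicate 3, Chrnb4 differed by -0.395 and was called (limma adjusted p = 0.0770). On leaving out any single array its adjusted p by limma ran from 0.0658 to 0.185. It was above 0.1 without control replicate 2, control replicate 3 or knockdown replicate 2. For Chrna5 it ran from 0.0449 to 0.243, was under 0.1 only without control replicate 1, and gave no call.

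The other 2 receptor genes had a wide spread within groups. Chrna7 encodes alpha7, which can form a receptor without other subunits. Its values were 10.35, 10.64 and 10.57 in knockdown arrays and 10.52, 10.88 and 10.78 in control arrays. The groups overlapped, since control replicate 1 lay below knockdown replicates 2 and 3, and the difference of -0.21 ± 0.11 (SE) did not pass (limma adjusted p = 0.315). Replicate 1 was the lowest array of both groups, and within pairs of the same number Chrna7 was lower in knockdown cells each time, with differences of -0.17, -0.24 and -0.21. A fit that blocked on replicate number gave it an adjusted p of 0.0429 (95% confidence interval -0.34 to -0.08), with the difference still under the fold cut-off. Chrnb2 encodes beta2, a subunit common in brain receptors. It had values of 10.64, 10.93 and 10.81 in knockdown arrays, against 10.58, 10.93 and 10.91 in control arrays. Chrnb2 showed the same low replicate 1 in both groups and a difference of -0.01 (95% confidence interval -0.26 to 0.23, limma adjusted p = 0.957).

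The genes that make, load and recover acetylcholine gave no call. Detection above background was not analysed here, so a gene without a call cannot be read as expressed and unchanged. Chat, the enzyme that makes acetylcholine, had values of 7.11, 6.99 and 7.16 in knockdown arrays and 7.16, 7.01 and 7.15 in control arrays. Its groups overlapped throughout, with a difference of -0.02 (95% confidence interval -0.18 to 0.15, limma adjusted p = 0.913). Slc18a3 encodes the vesicular acetylcholine transporter and lies within the bounds of Chat on the same strand. Its values were 8.17, 7.96 and 8.16 in knockdown arrays and 8.21, 8.26 and 8.30 in control arrays. The groups did not overlap but knockdown replicates 1 and 3 lay close to control replicate 1, and the difference was -0.16 ± 0.08 (SE, limma adjusted p = 0.268). Slc5a7 encodes the high-affinity choline transporter of nerve terminals. It had values of 6.56, 6.46 and 6.66 in knockdown arrays, against 6.75, 6.62 and 6.57 in control arrays. These overlapped, and the difference of -0.09 ± 0.08 (SE) did not pass (limma adjusted p = 0.539).

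Bche encodes butyrylcholinesterase, a relative of acetylcholinesterase with a broader choice of substrates. Its values were 5.76, 5.85 and 5.86 in knockdown arrays and 6.08, 5.88 and 5.92 in control arrays. The groups were separated only narrowly, with control replicate 1 above the rest, and the difference was -0.13 ± 0.07 (SE, limma adjusted p = 0.337).

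Over the 10 genes, 6 had groups that did not overlap, all of them lower in knockdown cells (Ache, Bche, Slc18a3, Chrna3, Chrna5 and Chrnb4), where 15.1% of all named rows were lower without overlap. In 7 of the 10 genes all 3 knockdown arrays were lower than their same-numbered controls, against 29% of named rows. Knockdown replicate 2 was the lowest array for 5 of the 10 genes and knockdown replicate 1 for 3. A control array was the highest for 8. The mean deviation of the 10 genes from their own averages was -0.14, -0.13 and -0.06 in knockdown replicates 1 to 3 and 0.07, 0.12 and 0.14 in the control replicates. The same measure over all named rows lay between -0.01 and 0.01 in every array. Quantile normalisation holds that measure near 0, so it does not show how far other sets of 10 rows deviate.

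Because differences moved with the array value in these data, each gene was set beside the rows of its own level class. The 21789 named rows were divided into 10 classes by their mean value. Chat, Chrna5, Slc18a3 and Chrnb4 fell into the 3 classes from 6.64 to 8.60, whose median differences ran from -0.09 to -0.08. In these classes 81.6%, 84.1% and 69.9% of rows lay below 0, and in the class of Bche and Slc5a7 76.3% did. In the class of Chrna7 and Chrnb2 34.8% of rows lay below 0, in that of Ache 38.5% and in that of Chrna3 48.4%. Ache and Chrna3 fell into the upper 2 classes, with median differences of 0.04 and 0.01. Of the 10 genes 9 had a difference below the median of their class, Chat being the exception, and 7 lay below its lower quartile. For Ache the class quartiles were -0.06 and 0.15, and for Chrna3 they were -0.08 and 0.09. For Chrnb4 they were -0.15 and 0.03, and for Chrna5 -0.15 and -0.03, so that both genes lay outside their class quartiles by a larger margin than Bche or Slc18a3.

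**Figure D2:**
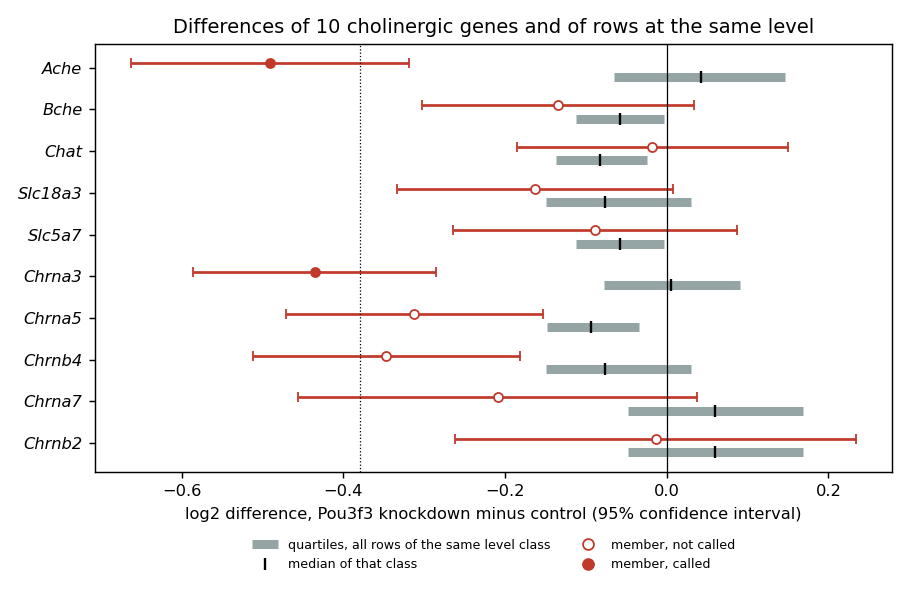
Log2 difference between Pou3f3 knockdown and control (horizontal axis) of the 10 cholinergic genes, with 95% confidence intervals from limma; filled points were called, grey bars span the quartiles of all rows in the level class of the gene, black ticks are class medians, and the dotted line marks a 1.3-fold lower level. The intervals of Ache, Chrna3, Chrna5 and Chrnb4 lie below 0 and below the median of their class, whereas those of Bche, Chat, Slc18a3, Slc5a7, Chrna7 and Chrnb2 include 0.

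Ratios between receptor subunits were compared within arrays, in 6 gene pairs, Ache to Bche among them, that were chosen after the values had been seen. Such ratios carry the probes of both genes, so that only their change between groups can be read. The log2 ratio of Chrna3 to Chrnb2 was 2.14 ± 0.11 in knockdown and 2.56 ± 0.16 in control cells (SD, n = 3 each), and that of Chrnb4 to Chrnb2 was -2.89 ± 0.22 in knockdown and -2.55 ± 0.17 in control cells. Neither pair of groups overlapped (exact two-sided permutation p = 0.1 each, the smallest possible, and 0.15 adjusted over the 6 pairs). The log2 ratio of Chrna3 to Chrna5 was 5.72 ± 0.03 in knockdown and 5.84 ± 0.06 in control cells, with the same p-values by the exact test. The ratio of Chrna3 to its partner Chrnb4 was 5.03 ± 0.14 in knockdown and 5.12 ± 0.09 in control cells, and these groups overlapped (exact two-sided permutation p = 0.4). The ratio of Chrna3 to Chrna7 was 2.42 ± 0.12 in knockdown and 2.64 ± 0.14 in control cells, and again overlapped (exact permutation p = 0.2). An exact test of 3 arrays against 3 cannot pass 0.05, so these ratios show size and spread only.

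The 3 genes on chromosome 9 lie in the order Chrna5, Chrna3, Chrnb4. The annotated ends of Chrna5 and Chrna3 overlap on opposite strands, and which probes read the shared stretch was not analysed here. The measured genes on either side of the 3 were Psma4, a proteasome subunit gene, with a difference of 0.03, and Ube2q2, a ubiquitin-conjugating enzyme gene, with 0.13, and neither passed (limma adjusted p = 0.867 and 0.481). Ube2q2 had 2 rows, of which the brighter is given, and the other differed by 0.11. Which of the rows reads the gene at this place was not analysed here. Ache on chromosome 5 lies between Muc3, a mucin gene, which differed by -0.05 without a call, and Ufsp1, which was lower. Ufsp1 belongs to the family of proteases that act on the small modifier UFM1. It had values of 10.09, 10.28 and 10.19 in knockdown arrays, against 10.70, 10.54 and 10.47 in control arrays. It fell by 0.39 ± 0.08 (SE, limma adjusted p = 0.0541), close to the fold cut-off, with groups that did not overlap, but was not called on leaving out any single array (adjusted p by limma from 0.0831 without control replicate 1 to 0.179 without control replicate 2) or among the 17778 rows above the median variance. The genes further out differed by -0.02 (Trim56) and 0.14 (Srrt), without a call.

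**Figure D3:**
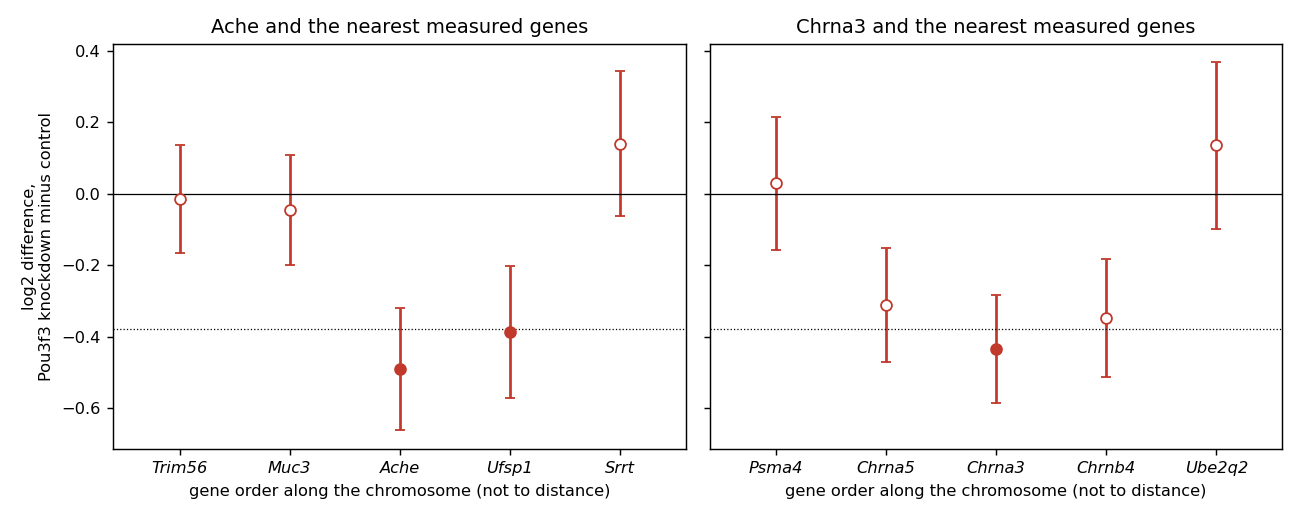
Log2 difference between Pou3f3 knockdown and control (vertical axis) with 95% confidence intervals from limma for Ache and Chrna3 and the nearest 2 measured genes on each side, in chromosome order without distances; filled points were called and the dotted line marks a 1.3-fold lower level. Ache and Ufsp1 lie low together, as do Chrna5, Chrna3 and Chrnb4, while Psma4 and Ube2q2 lie near or above 0.

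The rest of the cholinergic system was read from 43 further genes, of which 42 had a row with 1 symbol. None of the 42 was called lower, 2 were called higher, and 36 lay below 0, with a median of -0.11. Their median array value was 7.67, in a level class where 84.1% of all named rows lay below 0. After cyclic loess 28 lay below 0, with a median of -0.04, and 1 gene was called in each direction (Slc44a2 lower and Chpt1 higher). All named rows were called higher at 1.3%. None of the 11 other nicotinic subunit genes passed. They lay below 0, with a median of -0.12, but after cyclic loess 9 did, with a median of -0.04, and the largest difference was that of Chrna10 (-0.24 ± 0.09, SE, limma adjusted p = 0.179), a partner of alpha9 in hair cell receptors. The median array value of these 11 genes was 7.49, in the range where the class medians were lowest. The 5 muscarinic receptor genes, which encode G protein-coupled acetylcholine receptors, had a median of -0.15 (-0.09 after cyclic loess) and no call. Chrm4 showed the largest difference of these, -0.21 ± 0.09 (SE, limma adjusted p = 0.232, or 0.0466 with a replicate block).

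Prima1, which anchors acetylcholinesterase in the membranes of neurons, had values of 9.48, 9.52 and 9.49 in knockdown arrays and 9.66, 9.94 and 9.87 in control arrays. The knockdown arrays were nearly equal and all lower, and the difference of -0.33 ± 0.08 (SE, limma adjusted p = 0.0839) was under the fold cut-off. Colq, the collagen tail that anchors the enzyme at the muscle synapse, differed by -0.11 ± 0.07 (SE). Among 8 genes that assemble or modulate nicotinic receptors none was called, and 7 lay below 0, against 2 after cyclic loess. Ly6h, which encodes a membrane-anchored modulator, had the largest difference (-0.21 ± 0.07, SE, limma adjusted p = 0.165), and the chaperone gene Ric3 lay above 0 (0.18 ± 0.08, SE, limma adjusted p = 0.277). None of 6 transcription factor genes of cholinergic neurons passed, and the largest difference there was that of Mnx1 (-0.13 ± 0.08, SE).

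The 2 genes called higher both act in the use of choline for phospholipids. Chpt1, a choline phosphotransferase that makes phosphatidylcholine, had values of 8.97, 8.98 and 8.82 in knockdown arrays, against 8.50, 8.51 and 8.33 in control arrays. It rose by 0.48 ± 0.08 (SE, limma adjusted p = 0.0227), with groups well apart. Chka, the choline kinase that starts this pathway, had values of 10.12, 10.01 and 9.89 in knockdown arrays and 9.78, 9.54 and 9.46 in control arrays. It rose by 0.42 ± 0.10 (SE, limma adjusted p = 0.0704). Chka was not called on leaving out control replicate 2, control replicate 3, knockdown replicate 1 or knockdown replicate 2, nor was Chpt1 without knockdown replicate 2, and after cyclic loess Chka was not called. Neither was called among the 17778 rows above the median variance. The choline transporter-like gene Slc44a2 differed the other way, by -0.35 ± 0.09 (SE, limma adjusted p = 0.0827), under the fold cut-off, and was called lower after cyclic loess, and both it and Prima1 were called lower without control replicate 1.

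**Figure D4:**
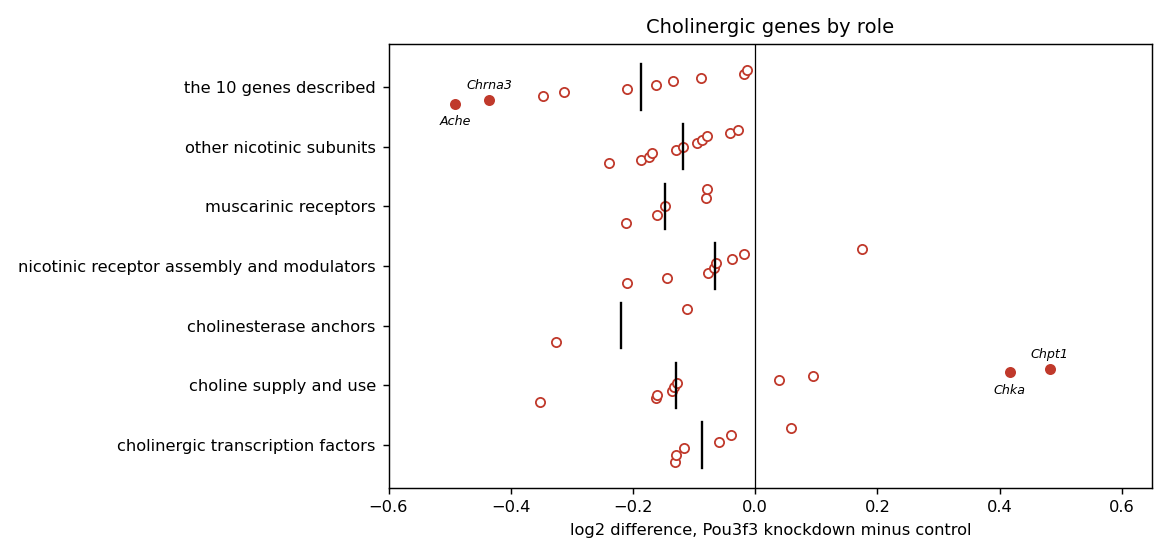
Log2 difference between Pou3f3 knockdown and control (horizontal axis) of the 10 genes described and of 42 further cholinergic genes grouped by role; each point is a gene, filled and named where called, and vertical bars are group medians. All points of the nicotinic and muscarinic receptor groups lie below 0 on the deposited scale (9 of 11 and 5 of 5 after cyclic loess), and the called genes of the choline group, Chka and Chpt1, lie above 0.

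The genes whose profiles over the 6 arrays were most like those of the called pair were found by the mean absolute distance between log2 values centred on each gene. Nearest to Chrna3 were Mitf, Adamtsl2 and Optc, at distances of 0.02 to 0.03, and nearest to Ache were Tafa1, Mcfd2 and Ifngr2, at 0.03 to 0.04. Their differences ran from -0.46 to -0.43, and since they were chosen for their likeness these values are a description. Mitf had a second, dimmer row, with a difference of 0.09 and no call.

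The medians of the 6 arrays over all rows ran from 7.90 to 8.01. Markers of sympathetic neuroblasts, measured for 9 of 11 genes, had array values from 8.14 to 13.76. Their linear values summed to 39491 to 39953 in knockdown arrays and 45255 to 48177 in control arrays. Such a sum is set mostly by the brightest genes and does not describe each marker. Of the 9 markers 1, Dbh, was called lower (-1.17 ± 0.12, SE, limma adjusted p = 0.00471). Gata3 (-0.33, limma adjusted p = 0.0484) and Chga (-0.35, limma adjusted p = 0.0628) also had lower groups without overlap, under the fold cut-off. With a replicate block Th, the rate-limiting enzyme of catecholamine synthesis, was called lower too (-0.38, limma adjusted p = 0.0420, against 0.133 without the block). Of the 9 markers 7 lay below 0, and 2, Ddc and Hand2, lay above it. Ddc differed by 0.23 (limma adjusted p = 0.0330 with the block), under the fold cut-off, and Hand2 by 0.04. Of 21 measured markers of motor neurons, glia, muscle, fibroblasts and macrophages, 1 was called higher, the muscle filament gene Des (0.39 ± 0.10, SE, limma adjusted p = 0.0797), and none lower. Des was called in 1 of the 6 fits that leave out an array, the one without knockdown replicate 1. The summed linear values of the 21 markers were 5595 to 6049 in knockdown arrays and 5736 to 6078 in control arrays. Detection above background was not analysed here, so no marker can be called absent, and the part of these shifts in the results above was not tested.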

How the data were processed

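Total RNA from 3 knockdown and 3 control samples was hybridised, with 200 ng labelled per array. The deposited values are log2 values that the authors made by RMA background correction, quantile normalisation and a summary of probes at the gene level. The notes of the submitters name RMA and limma without versions, and the build behind the array design is not given in these sources. Quantile normalisation hides a change shared by most transcripts.

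Names came from the gene table of the platform, with symbols updated by Entrez identifier in a RefSeq table of GRCm38.p6 (21698 of 21789 rows with 1 symbol). Rows with several symbols (1621) or not listed (12146) were left out. All named rows were fitted with lmFit and eBayes in limma 3.58.1 (R 4.3.3), without a block, and p-values were adjusted over all of them by the Benjamini-Hochberg procedure. The threshold follows the study's methods. Its variance filter, read as a quantile, was run as an alternative because it removes some of the genes described, a choice made with earlier results known. As read here the filter gave 12 called rows, far fewer than the genes that the study reported, so this reading does not reproduce its list. Exact permutation tests were two-sided (scipy 1.17.1 for ratios). The code was tested on simulated data with noise drawn independently for each array, which does not test the calls made here. The number of arrays limits the precision.

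Arrays of the same replicate number deviated together (correlations of deviations from the group means of 0.64, 0.31 and 0.29 over named rows). Knockdown replicate 2 with control replicate 3 gave 0.22, and knockdown replicate 3 with control replicate 2 gave 0.25. Replicate 1 was thus set apart, whereas replicates 2 and 3 were hardly told apart, and the sample titles state no pairing. The numbers were taken to pair the arrays, and a fit with the number as a block was run beside the main one.

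The genes and lists were chosen with earlier results of these data known. Named are the 10 genes, Pou3f3, every called gene of each further list or otherwise the gene with the largest difference, the nearest 2 measured genes on each side of a called gene, and the 3 genes with the most similar profile for each of the 2 genes with the lowest p. Prima1, Colq, Ric3, Slc44a2, Dbh, Gata3, Chga, Th, Ddc, Hand2 and Des were added after their values had been seen.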

Additional observations from a re-analysis of the deposited data

How the results depend on the processing

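Of 131 alternative values of the 10 differences, 121 kept their direction and their side of the threshold. Many could not change direction. The mean of all rows of a symbol repeats the difference, since each gene had 1 row. The row filters, the block and the intensity trend also leave the difference itself as it was. For the genes not called in the main fit, keeping their side means staying uncalled. Ache and Chrna3 stayed called under median centring, cyclic loess, an intensity trend, the replicate block, filters on dim rows and on the variance of named rows, and on leaving out any array (2 to 3 of the 10 genes called). On leaving out an array their adjusted p by limma rose to as much as 0.0978 and 0.0992, just under the cut-off. Restricting the test to rows above the median variance, listed or not, left 0 of the 6 genes tested, 0 of the further cholinergic genes and 12 rows in all. The cause was not tested. Without the fold cut-off 4 of the 10 genes, 4 further genes and 969 rows were called. Leaving out 1 array gave 0 to 4 further genes and 147 to 611 rows, with 161 without control replicate 2, 219 without control replicate 3 and 147 without knockdown replicate 2, against 433. The difference of Chat was 0.061 after cyclic loess and -0.0647 to 0.0295 on leaving out 1 array, and that of Chrnb2 was -0.127 to 0.062. After cyclic loess 54.6% of the calls were higher in knockdown cells, against 65.6%. With the replicate block 544 rows were called, again with Ache and Chrna3, and no call among the 10 genes changed. The variance filters and the filter on dim rows gave no value for genes that they removed.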
